A study of Mus musculus with 16 samples.

Results

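The 10 cytokine genes described here are Tnf, Il1a, Il1b, Il6, Il12b, Osm, Ifnb1, Il10, Il1rn and Il18. They were chosen by name as cytokines that macrophages make, several of them known targets of the transcription factor IRF5, and each matched 1 row of the 37310 gene rows of the count table. Their mRNA was measured by RNA sequencing in F4/80+ adipose tissue macrophages (ATMs) of mice on a high-fat diet (HFD). There were 4 libraries in each of 4 groups, which were wild-type (WT) or lacking Irf5 in myeloid cells (IRF5-KO), after 4 weeks (ST-HFD) or 12 weeks (LT-HFD) of HFD. IRF5-KO mice carried floxed Irf5 alleles and Cre recombinase under the Lyz2 (LysM) promoter, which is active in myeloid cells and not in macrophages alone, and the WT mice were littermates. All 16 libraries came from mice on HFD, so that no comparison with lean mice is given here. The mice were males on a C57BL/6J background, young adults when the experiments began. Cells were drawn from collagenase-digested epididymal fat with magnetic beads against F4/80, each library coming from a separate sample of its group. The comparison of genotypes at each duration asked how the ATM transcriptome depended on IRF5 early and late in diet-induced obesity.

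Macrophages transcribe many of these genes within minutes of a danger signal, through NF-kB and AP-1, and interferon regulatory factors act on some of them, Ifnb1 above all. The messages are short-lived, and RNA-binding proteins such as tristetraprolin (Zfp36) hasten their decay. TNF and IL-1 act on neighbouring adipocytes and stromal cells in obese fat, while IL-10 and the IL-1 receptor antagonist restrain the response.

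The libraries held between 3279332 and 4958131 counts, of which the 3 most abundant features took 18.6% to 34.5%. Counts were normalised by the TMM method of edgeR and are given as CPM, the count per library size on the usual scale, and 3 counts corresponded to between 0.565 and 1.05 CPM. Irf5, the targeted gene, did not show a lower level in either IRF5-KO-labelled group. On ST-HFD it was at 203, 252, 248 and 248 CPM in the WT libraries (replicates 1 to 4) and at 250.4, 253, 274 and 269.6 CPM in the IRF5-KO-labelled ones. On LT-HFD it was at 207, 183, 213 and 170.5 CPM in WT and at 207, 253, 251 and 206 CPM in the IRF5-KO-labelled ones. A single count per gene cannot tell a transcript without the floxed exons from a whole one, and Irf5 overlaps Tnpo3 on the opposite strand. Between durations Irf5 was called lower on LT-HFD in WT (log2 change -0.30, edgeR adjusted p = 0.0485), a call that held in 5 of 16 fits with 1 library left out (edgeR adjusted p up to 0.152) and was lost without a filter (edgeR adjusted p = 0.101). In the IRF5-KO-labelled libraries its change was -0.19 (edgeR adjusted p = 0.181). Genotypes and durations are given as labelled throughout, and every direction between genotypes and every direction between durations rests on those labels. Read by eye, a panel of the study draws Irf5 in the WT libraries with the durations the other way round, and which is right was not tested. Macrophage markers were high in every library (8 genes, summed level 3428 to 5481 CPM), and the 8 neutrophil markers summed to between 14.7 and 46.0 CPM. Of these, Ly6g and Camp were at 0 in all 16 libraries, Csf3r was at 13.8 to 44.6 CPM and the other 5 did not exceed 1.63 CPM in any library.

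The upstream sequences of the genes at the centre of these results are shown first, because Ifnb1 and Il6 moved together over the libraries, Il1rn ran against them, and Il1b was called between diet durations. They are the 250 bases before the transcription start, read 5′ to 3′ on the gene's strand from RefSeq on GRCm38.p6, and capitals mark matches to the NF-kB, AP-1, C/EBP and wider interferon regulatory factor motifs described after them.
Ifnb1: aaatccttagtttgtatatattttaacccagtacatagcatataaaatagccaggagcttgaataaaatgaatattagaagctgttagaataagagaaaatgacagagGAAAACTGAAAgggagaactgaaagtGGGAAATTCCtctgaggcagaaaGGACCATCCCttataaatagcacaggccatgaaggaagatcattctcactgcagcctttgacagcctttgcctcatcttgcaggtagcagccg
Il6: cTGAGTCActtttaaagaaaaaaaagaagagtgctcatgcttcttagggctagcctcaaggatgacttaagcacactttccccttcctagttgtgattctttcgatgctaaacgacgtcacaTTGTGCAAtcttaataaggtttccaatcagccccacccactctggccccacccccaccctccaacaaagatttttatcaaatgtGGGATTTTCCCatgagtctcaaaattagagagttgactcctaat
Il1rn: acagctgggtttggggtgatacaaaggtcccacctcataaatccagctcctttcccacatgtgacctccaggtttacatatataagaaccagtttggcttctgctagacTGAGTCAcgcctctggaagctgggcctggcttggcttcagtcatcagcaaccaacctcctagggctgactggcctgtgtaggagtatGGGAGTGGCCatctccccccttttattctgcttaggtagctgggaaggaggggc
Il1b: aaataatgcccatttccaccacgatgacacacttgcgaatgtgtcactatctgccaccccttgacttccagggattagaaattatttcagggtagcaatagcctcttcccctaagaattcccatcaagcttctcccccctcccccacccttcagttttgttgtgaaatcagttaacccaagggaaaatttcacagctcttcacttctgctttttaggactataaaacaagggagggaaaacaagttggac
These stretches lie at chr4:88522795-88523044 on the minus strand (Ifnb1), chr5:30012864-30013113 on the plus strand (Il6), chr2:24336610-24336859 on the plus strand (Il1rn, the first of its 3 listed starts) and chr2:129371140-129371389 on the minus strand (Il1b). Motifs were searched on both strands of windows that also took in the 50 bases from the start onwards, and RefSeq windows were found for 8 of the 10 genes (not for Il10 and Osm). The NF-kB letters, GGGA and CC with 4 free bases between them, were found in 4 of the 8 genes (Ifnb1, Il6, Il1rn and Tnf), or 4 of their 10 windows since Il1rn has 3, and in 20.7% of all 32851 windows. In Ifnb1 they stood at -116 to -107 and, on the other strand, at -93 to -84 relative to the start. In Il6 they stood at -44 to -35, overlapping a match on the other strand at -43 to -34, and in Tnf they lay 29 to 38 bases after the start. The AP-1 letters TGANTCA, which read alike on both strands, were found in Il1a, Il1rn and Il6 (3 of the 10 windows) and in 7.81% of all windows, and the C/EBP letters TTGCNNAA in Il6 alone (1 of the 10) and in 10.8% of all windows. The interferon regulatory factor letters, GAAA repeated after 2 free bases, were in 3.44% of all windows and in 0 of the 8 genes. The same repeat after 3 free bases, added after the windows had been read, was in Ifnb1 at -142 to -132 and in 2.75% of all windows. No match means only that these letters are not in this window, and a match was not tested for binding.

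Tnf was the most abundant of the 10 messages per kilobase of exon in each of the 4 groups, and Il10 came second in each. Exon length was the union of all annotated exons of a gene, and the place of Il10 depends on it. It was 1310 bases for Il10 and 5535 for Il1rn, and in CPM alone Il1rn averaged 108 and Il10 37.9. Averaged over 16 libraries, the level was 117 ± 36.9 CPM per kb (SD, n = 16) for Tnf, 29.0 ± 14.3 CPM per kb for Il10, 19.6 ± 8.30 CPM per kb for Il1rn and 13.6 ± 8.23 CPM per kb for Ifnb1. Those 4 levels were above those of 97.7%, 89.5%, 84.4% and 77.6% of 11362 ranked genes. Osm, Il18, Il1b and Il6 lay near the middle of the ranked genes, with 5.02, 4.88, 3.69 and 3.45 CPM per kb, and Il1a (0.902 CPM per kb) and Il12b (0.241 CPM per kb) near the bottom. Tnf alone made up 47.1% to 66.8% of the summed per-kilobase level of the 10 genes in a library. Neighbours in the order overlapped over the 4 libraries of a group in most cases. The exceptions were on LT-HFD, where Tnf stood clear of Il10 and Il1b stood clear of Il1a in both genotypes, Il1rn stood clear of Il18 in WT, and Il1a stood clear of Il12b in the IRF5-KO-labelled libraries. The last of these lay at the edge of detection, with 3, 3, 3 and 4 counts for Il1a beside 1, 0, 0 and 0 for Il12b. In these bulk samples, fewer expressing cells and less RNA per cell cannot be told apart.

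**Figure D1:**
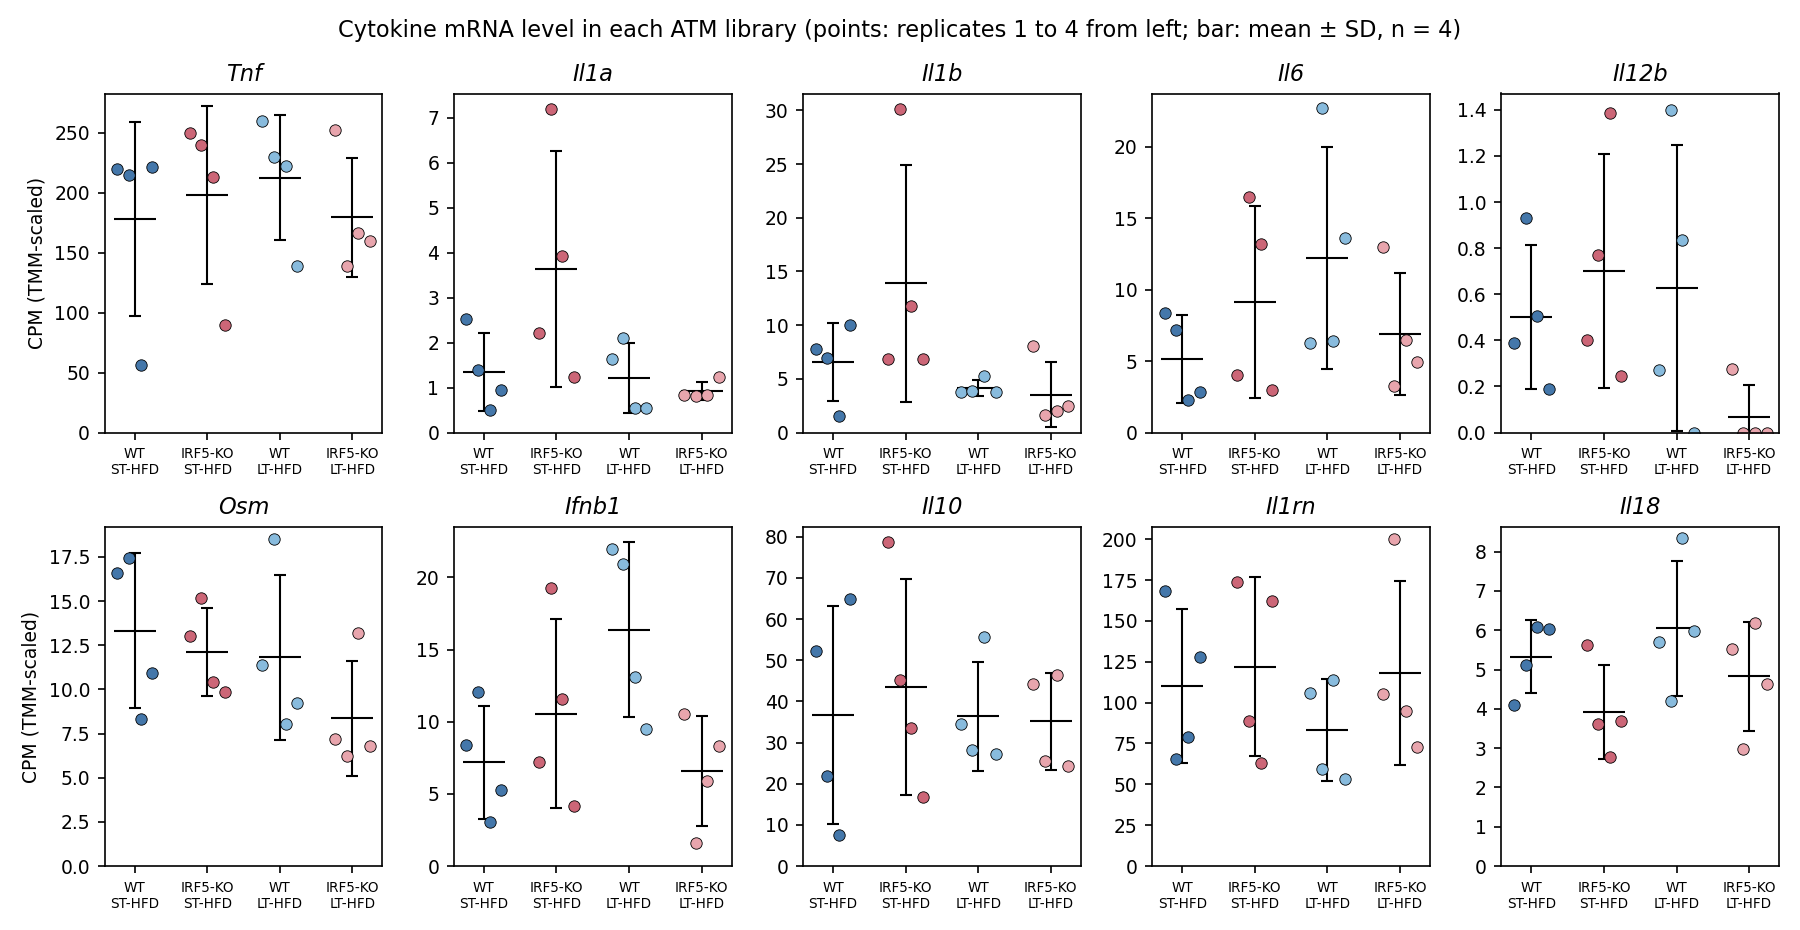
Each panel plots 1 cytokine gene, with TMM-scaled CPM from 0 on the vertical axis and the 4 groups on the horizontal axis; points are the 4 libraries of a group (replicates 1 to 4 from left to right), bars the mean and SD. Tnf in WT on ST-HFD holds a library at 56.4 CPM beside 3 at 215 to 222 CPM, and Il1b is highest in an IRF5-KO-labelled library on ST-HFD, at 30.1 CPM.

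Between genotypes no cytokine passed the test at either duration. On ST-HFD 9 of the 10 genes passed the filter on low counts (all but Il12b), and at an adjusted p under 0.05 (edgeR, quasi-likelihood, Benjamini-Hochberg) the test called 0 of the 9, against 0.00913% of the 10958 genes tested. At an unadjusted p under 0.05, 1 of the 9 (Il1a) passed, against 1.84% of all genes. On LT-HFD, where Il1a was filtered out too, it called 0 of 8, against 0.0182% of 10987 genes, and 1 of 8 (Ifnb1) had an unadjusted p under 0.05, against 5.72%. DESeq2 likewise called 0 of 10 at each duration, with 1 of 10 at an unadjusted p under 0.05. The groups overlapped for every tested cytokine at both durations, against groups that stood apart for 1.47% of all genes at the shorter duration and 3.01% at the longer. The signs differed by duration, with 7 of 9 fold changes above 0 on ST-HFD (50.7% of all genes) and 7 of 8 below 0 on LT-HFD (49.9% of all genes). The median over the cytokines was 0.23 on the log2 scale on ST-HFD and -0.30 on LT-HFD, where the median over all genes was 0.00 at both. Immediate early genes, which answer tissue digestion as well as inflammatory signals, had the same signs: all 12 of the list were above 0 on ST-HFD (median 0.22) and all 12 below 0 on LT-HFD (median -0.40). None of them was called, and 0 of 12 on ST-HFD and 4 of 12 on LT-HFD had an unadjusted p under 0.05. Dendritic cell markers also had these signs, with all 5 tested of 8 above 0 on ST-HFD (median 0.24) and all 4 tested below 0 on LT-HFD (median -0.42, lowest Cd209a at -1.23 with an unadjusted p of 0.0210 from edgeR), as had the 2 B cell markers tested of 6 and the 1 T and NK cell marker tested of 10. The monocyte markers were split: of the 4 tested on LT-HFD, Ccr2 and Fn1 were at -0.55 and -0.47 (unadjusted p = 0.0175 and 0.0341 from edgeR), Plac8 was at -0.067 and Chil3 at 0.77. No marker of these 4 lists was called between genotypes. The part of these gene lists in the cytokine values was not tested.

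**Figure D2:**
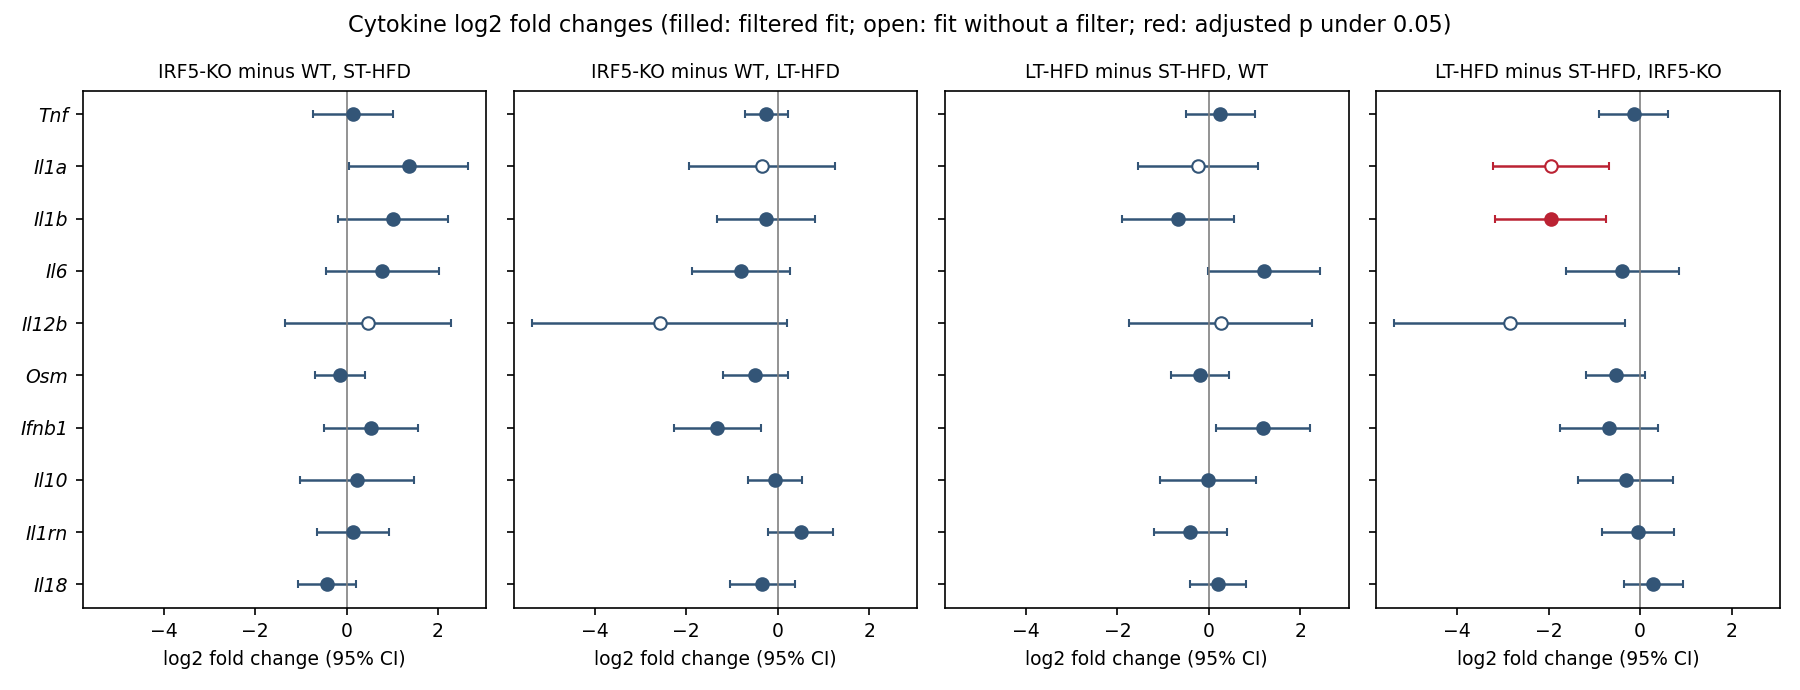
Log2 fold changes of the 10 genes (horizontal axis, with 95% confidence intervals from edgeR) in the 4 comparisons, where filled points come from the filtered fit and open points from the fit without a filter. The intervals of all but Il1a on ST-HFD and Ifnb1 on LT-HFD span 0 between genotypes, and the red points, Il1b and Il1a between durations in the IRF5-KO-labelled libraries, have an adjusted p under 0.05.

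Tnf (chr17:35199381-35202007, minus strand, with all gene positions on GRCm38) encodes tumour necrosis factor, the cytokine first tied to insulin resistance in fat. On ST-HFD it was at 219.7, 215, 56.4 and 222 CPM in WT and at 249.6, 239, 213 and 89.4 CPM in the IRF5-KO-labelled libraries. On LT-HFD it was at 260.0, 229.5, 222 and 139 CPM in WT and at 252, 139, 167 and 160.01 CPM in the IRF5-KO-labelled ones. The groups overlapped throughout, and each ST-HFD group held 1 library far below its other 3. The log2 fold change between genotypes was 0.14 (standard error 0.40, edgeR adjusted p = 0.9998) on ST-HFD and -0.25 (standard error 0.21, edgeR adjusted p = 0.915) on LT-HFD. The 95% confidence intervals were -0.74 to 1.02 and -0.72 to 0.22. Without WT ST-HFD replicate 3, the ST-HFD value was -0.15. The LT-HFD value was -0.45 without IRF5-KO LT-HFD replicate 1 and -0.12 without WT LT-HFD replicate 1. With duration it was 0.25 in WT and -0.14 in the IRF5-KO-labelled libraries, where it ranged from -0.39 without IRF5-KO ST-HFD replicate 4 to -0.011 without replicate 1 of that group.

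Il1b (chr2:129364570-129371139, minus strand) encodes interleukin-1 beta, made as a precursor that caspase-1 cleaves, and it was the single gene of the 8 cytokines tested over both durations to be called. Its ST-HFD levels were 7.81, 6.97, 1.52 and 9.99 CPM in WT and 6.82, 30.1, 11.8 and 6.89 CPM in the IRF5-KO-labelled libraries. Its LT-HFD levels were 3.80, 3.84, 5.28 and 3.81 CPM in WT and 8.02, 1.63, 1.97 and 2.47 CPM in the IRF5-KO-labelled ones. Between durations in the IRF5-KO-labelled libraries, Il1b fell by 1.95 on the log2 scale (standard error 0.57, edgeR adjusted p = 0.0147), although the highest LT-HFD library lay above the lowest ST-HFD libraries. In WT the log2 change with duration was -0.67 (standard error 0.58, edgeR adjusted p = 0.444), and a difference between the 2 genotypes in this change was not shown (log2 difference -1.29, edgeR adjusted p = 0.969). That difference was -0.59 without IRF5-KO ST-HFD replicate 2 and -2.10 without IRF5-KO LT-HFD replicate 1, and the change in WT was -0.39 without WT ST-HFD replicate 4. The call rested on IRF5-KO ST-HFD replicate 2, without which the change was -1.26 with an edgeR adjusted p of 0.0909, while without IRF5-KO LT-HFD replicate 1 it was -2.76. Replicate 2 on ST-HFD also had the highest summed level of immediate early genes of the 16, at 13659 CPM. With duration in the IRF5-KO-labelled libraries, 10 of the 12 immediate early genes were below 0 (median -0.59 on the log2 scale), and edgeR called 3 of them lower and 0 higher. In the same IRF5-KO-labelled libraries the 6 monocyte markers summed to between 1506 and 1890 CPM on ST-HFD and between 486 and 700.3 CPM on LT-HFD, a sum made up mostly of Fn1 (1068 CPM on average over all 16 libraries) and Ccr2 (143 CPM). Of the 4 monocyte markers tested with duration there, Fn1 and Ccr2 were called lower (log2 changes of -1.77 and -0.80), while Plac8 and Chil3 were at 1.66 and 1.85 and were not called by edgeR. The 8 neutrophil markers summed to between 28.8 and 41.9 CPM on ST-HFD and between 14.7 and 30.3 CPM on LT-HFD. The 1 neutrophil marker tested, Csf3r, was called lower (log2 change -0.82, edgeR adjusted p = 0.0122), as were Cd4, the 1 T and NK cell marker tested (-2.06, edgeR adjusted p = 0.0480), and Cd209a, 1 of the 5 dendritic cell markers tested (-1.52, edgeR adjusted p = 0.0159). Of those 5, 4 were below 0 and 1 was above it, at 1.11 with an unadjusted p under 0.05 from edgeR. Cd4 averaged 6.15 CPM over the 16 libraries. Cd3e, Cd3g, Cd3d and Trac of the same list averaged 0.831, 1.06, 0.289 and 0.472 CPM. The part of these markers in the value of Il1b was not tested. Between genotypes the log2 fold change of Il1b was 1.02 (standard error 0.54, unadjusted p = 0.0879 from edgeR) on ST-HFD and -0.25 on LT-HFD. Without IRF5-KO ST-HFD replicate 2 the first of these was 0.33, and the second ranged from -1.04 (without IRF5-KO LT-HFD replicate 1) to -0.015 (without replicate 2 of that group). An antisense transcript, Il1bos, overlaps the gene, and the strand setting of the counting was not given in the sources used here.

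Il1a (chr2:129299610-129309972, minus strand) encodes interleukin-1 alpha, an alarmin that signals through the same receptor without needing that cleavage, and it had few counts, 2 to 28 per library. After the shorter diet it was at 2.54, 1.39, 0.506 and 0.942 CPM in WT and at 2.21, 7.20, 3.93 and 1.23 CPM in the IRF5-KO-labelled libraries. Replicates 2 and 3 of the latter lay above every other library of the series. Between genotypes on ST-HFD the log2 fold change was 1.36 (standard error 0.59, unadjusted p = 0.0415, adjusted p = 0.9998 from edgeR). Without IRF5-KO ST-HFD replicate 2 it was 0.82. On LT-HFD it lay between 0.544 and 2.10 CPM in WT and between 0.813 and 1.24 CPM in the IRF5-KO-labelled ones, and it did not pass the filter. Without a filter the log2 change with duration was -1.95 in the IRF5-KO-labelled libraries (standard error 0.63, edgeR adjusted p = 0.0278). With 1 library left out at a time, the call held in 11 of 16 fits and was lost without IRF5-KO ST-HFD replicate 2 (edgeR adjusted p = 0.207) or 3, or LT-HFD replicate 1, 2 or 3 (edgeR adjusted p of 0.0606 to 0.0690). Gm14023 overlaps Il1a on the opposite strand.

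Il6 (chr5:30013114-30019981, plus strand) and Osm (chr11:4236420-4241026, plus strand) encode cytokines of the gp130 family, of which interleukin-6 drives the acute phase response and oncostatin M acts on stromal cells. On ST-HFD Il6 was at 8.39, 7.20, 2.28 and 2.83 CPM in WT and at 4.01, 16.5, 13.2 and 2.95 CPM in the IRF5-KO-labelled libraries. On LT-HFD it was at 6.24, 22.7, 6.40 and 13.6 CPM in WT and at 12.99, 3.25, 6.46 and 4.94 CPM in the IRF5-KO-labelled ones. No group stood apart from another. The log2 fold change of Il6 between genotypes was 0.78 (standard error 0.57) on ST-HFD and -0.80 (standard error 0.49) on LT-HFD, and with duration it was 1.21 in WT (standard error 0.58, unadjusted p = 0.0537 from edgeR) and -0.39 in the IRF5-KO-labelled libraries. Between genotypes Il6 was at 0.35 without IRF5-KO ST-HFD replicate 2 and, on LT-HFD, at -1.30 without IRF5-KO LT-HFD replicate 1 and -0.34 without WT LT-HFD replicate 2, and its change with duration in WT was 0.74 without the latter. Osm was steadier, between 8.35 and 17.4 CPM in WT and between 9.85 and 15.2 CPM in the IRF5-KO-labelled ones on ST-HFD. On LT-HFD it ranged from 8.07 to 18.5 CPM in WT and was at 7.19, 6.23, 13.2 and 6.80 CPM in the IRF5-KO-labelled ones. Its log2 fold change on LT-HFD was -0.49 (standard error 0.33, edgeR adjusted p = 0.896), and it was -0.79 without IRF5-KO LT-HFD replicate 3 and -0.20 without WT LT-HFD replicate 2.

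Il12b (chr11:44400063-44414033, plus strand) encodes the subunit shared by interleukin-12 and interleukin-23, and was at the edge of detection, with 30 counts over all 16 libraries. On ST-HFD the 4 WT libraries held 9 counts and the IRF5-KO-labelled ones 12. On LT-HFD they held 8 and 1, with 3 of the 4 IRF5-KO-labelled libraries and WT replicate 4 at 0. A count of 0 allows up to 3 counts, which is 0.813 to 0.927 CPM in those 4 libraries. Summed over libraries, the LT-HFD ratio of IRF5-KO to WT was 0.122, with a 95% exact interval of 0.00276 to 0.914 that covers counting error only and not the spread between mice. The ST-HFD ratio was 1.44, with an interval of the same kind of 0.558 to 3.88. In the edgeR fit without a filter, the unadjusted p was 0.0671 and the adjusted p 0.774. Between durations in the IRF5-KO-labelled libraries, from 12 counts to 1, the unadjusted p was 0.0273 and the adjusted p 0.125 in that edgeR fit.

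Ifnb1 (chr4:88522025-88522774, minus strand) encodes interferon beta, the type I interferon that activated macrophages secrete early and a target of interferon regulatory factors. Levels on ST-HFD were 8.39, 12.1, 3.04 and 5.28 CPM in WT and 7.22, 19.3, 11.6 and 4.18 CPM in the IRF5-KO-labelled libraries. On LT-HFD it was at 21.98, 20.96, 13.1 and 9.51 CPM in WT and at 10.5, 1.63, 5.90 and 8.34 CPM in the IRF5-KO-labelled ones. On LT-HFD 3 of the 4 IRF5-KO-labelled libraries lay below every WT library, and only replicate 1 (10.5 CPM) reached into the WT range. The LT-HFD log2 fold change between genotypes was -1.32 (standard error 0.43, 95% confidence interval -2.26 to -0.37, unadjusted p = 0.0105), which did not pass after adjustment over all genes (edgeR adjusted p = 0.853). It stayed between -1.64 and -0.99 as each of the 8 libraries was left out, with unadjusted p-values of 0.00294 to 0.0411. On ST-HFD it was 0.53 (standard error 0.47, edgeR adjusted p = 0.9998), and 0.083 without IRF5-KO ST-HFD replicate 2. The test of the difference between the durations gave -1.85 on the log2 scale (standard error 0.70, unadjusted p = 0.0176, adjusted p = 0.969 from edgeR), and -1.40 with an unadjusted p of 0.0580 without IRF5-KO ST-HFD replicate 2. In WT, the log2 change of Ifnb1 with duration was 1.18 (standard error 0.49, edgeR adjusted p = 0.0886), a value that crossed the threshold without a filter (edgeR adjusted p = 0.0437) and in a fit of those 8 libraries alone (edgeR adjusted p = 0.0468). In the IRF5-KO-labelled libraries the log2 change with duration was -0.67 (standard error 0.51, edgeR adjusted p = 0.333), and it was -0.23 without IRF5-KO ST-HFD replicate 2.

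Il10 (chr1:131019845-131024974, plus strand) encodes interleukin-10, the main anti-inflammatory cytokine of macrophages. In ATMs on ST-HFD it was at 52.3, 21.8, 7.59 and 64.8 CPM in WT and at 78.8, 45.3, 33.5 and 16.7 CPM in the IRF5-KO-labelled libraries. On LT-HFD it was at 34.5, 28.3, 55.6 and 27.2 CPM in WT and at 44.2, 25.5, 46.4 and 24.4 CPM in the IRF5-KO-labelled ones. Its group means were close, from 35.1 to 43.6 CPM, within a far larger spread between libraries. The log2 fold change between genotypes was 0.23 (standard error 0.56) on ST-HFD and -0.06 (standard error 0.27) on LT-HFD, and both signs turned when some single libraries were left out. Tnf exceeded Il10 per kilobase in every library, by 2.53-fold to 7.87-fold.

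Il1rn (chr2:24336853-24351494, plus strand) encodes the IL-1 receptor antagonist, which occupies the receptor without signalling. Its ST-HFD levels were 168, 65.7, 78.7 and 128 CPM in WT and 174, 88.5, 63.1 and 162 CPM in the IRF5-KO-labelled libraries. On LT-HFD it was at 106, 59.4, 114 and 53.6 CPM in WT and at 105, 200.1, 94.7 and 72.9 CPM in the IRF5-KO-labelled ones. Of the 8 cytokines tested on LT-HFD it alone had a fold change above 0, at 0.51 on the log2 scale (standard error 0.32, edgeR adjusted p = 0.885), and without IRF5-KO LT-HFD replicate 2 that value was 0.11. Per kilobase, the ratio of the antagonist to the summed agonists Il1a and Il1b ranged from 0.823 in IRF5-KO ST-HFD replicate 2, where the agonists exceeded it on that scale, to 28.6 in IRF5-KO LT-HFD replicate 2. The ratio depends on exon lengths of 5535 bases for Il1rn, 1974 for Il1a and 1907 for Il1b. In CPM alone, Il1rn (88.5) stood above Il1a (7.20) and Il1b (30.1) in IRF5-KO ST-HFD replicate 2. On ST-HFD the median ratio was 4.84 in WT and 4.05 in the IRF5-KO-labelled libraries, on LT-HFD it was 5.50 and 9.29, and all groups overlapped.

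Il18 (chr9:50554827-50581840, plus strand) encodes a cytokine of the IL-1 family that resting macrophages hold as a precursor for the inflammasome, and its spread between libraries was the smallest of the 8 tested. It ranged from 4.10 to 6.07 CPM in WT and from 2.77 to 5.61 CPM in the IRF5-KO-labelled libraries on ST-HFD, and from 4.19 to 8.34 CPM and 2.98 to 6.18 CPM on LT-HFD. The log2 fold change between genotypes was -0.43 (standard error 0.29, edgeR adjusted p = 0.9998) on ST-HFD and -0.34 (standard error 0.32, edgeR adjusted p = 0.928) on LT-HFD. The former was -0.67 without IRF5-KO ST-HFD replicate 1, and the latter -0.13 without WT LT-HFD replicate 3. Tex12 and Bco2 overlap the gene on the opposite strand, so that its counts are uncertain.

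Il1b, lower on LT-HFD in the IRF5-KO-labelled libraries, was the cytokine called between durations among the 8 that passed the filter, and whether cytokines were called less often than other genes was not tested. Between durations in WT, edgeR called 0 of the 8 tested cytokines against 25.3% of 11560 genes, with 1 of 8 at an unadjusted p under 0.05 (35.9% of all genes) and 4 of 8 fold changes above 0 (51.9% of all genes), and DESeq2 called 0 of 10 with 2 at an unadjusted p under 0.05. In the IRF5-KO-labelled libraries edgeR called 1 of 8 (Il1b, lower) against 32.8% of all genes, 17.2% in that direction, with 1 of 8 at an unadjusted p under 0.05 (42.8% of all genes) and 7 of 8 fold changes below 0 (46.9% of all genes), and DESeq2 called both Il1a and Il1b. The 8 genes overlapped between durations in both genotypes, against 26.1% (WT) and 29.4% (IRF5-KO) of all genes with no overlap. Their spread between libraries was wide: the biological coefficient of variation in the 16-library fit was 0.352 for Tnf, 0.366 for Il1rn, 0.468 for Ifnb1, 0.483 for Il10, 0.518 for Il1b and 0.543 for Il6, against a median of 0.172 over 11560 genes. Osm (0.268) and Il18 (0.208) varied less. The first 6 of these values were each above those of at least 87.4% of all genes, and a cytokine that was not called is not thereby shown to be unchanged. The edgeR test of whether the genotype effect differed between durations called 0 of 8 (0% of 11560 genes), with 1 of 8 (Ifnb1) at an unadjusted p under 0.05 against 3.93% of all genes, and DESeq2 called 0 of 10 with 1 at an unadjusted p under 0.05.

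Part of that spread was shared between genes. WT ST-HFD replicate 3 was the lowest of its group for 6 of 8 cytokines, IRF5-KO ST-HFD replicate 4 for 5 and IRF5-KO LT-HFD replicate 2 for 6. These 3 libraries had the lowest summed level of 12 immediate early genes (among them Fos, Jun, Egr1 and Nr4a1, with the stress genes Hspa1a and Hspa1b and with Dusp1, which the signalling list also holds), at 4638, 5860 and 5668 CPM, where the other 13 libraries lay between 7162 and 13659 CPM. The WT LT-HFD group did not follow this pattern. Its library lowest in immediate early genes, replicate 3 (7626 CPM), was lowest for 1 cytokine and highest for 4, and replicate 4, lowest for 4 cytokines, stood above replicates 1 and 3 in that sum (10457 CPM). Over the 16 libraries, Pearson's r with that sum was 0.77 for Tnf, 0.77 for Ifnb1, 0.75 for Il6, 0.71 for Il1b, 0.59 for Osm and 0.48 for Il10. It was negative for Il18 (-0.19) and for Il1rn (-0.42). With group means removed, the values were 0.81, 0.82, 0.81, 0.73, 0.56, 0.50, -0.19 and -0.43 in the same order. Both measures of a point come from the same library, with its digestion, depth and normalisation, and the values are given as a description.

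**Figure D3:**
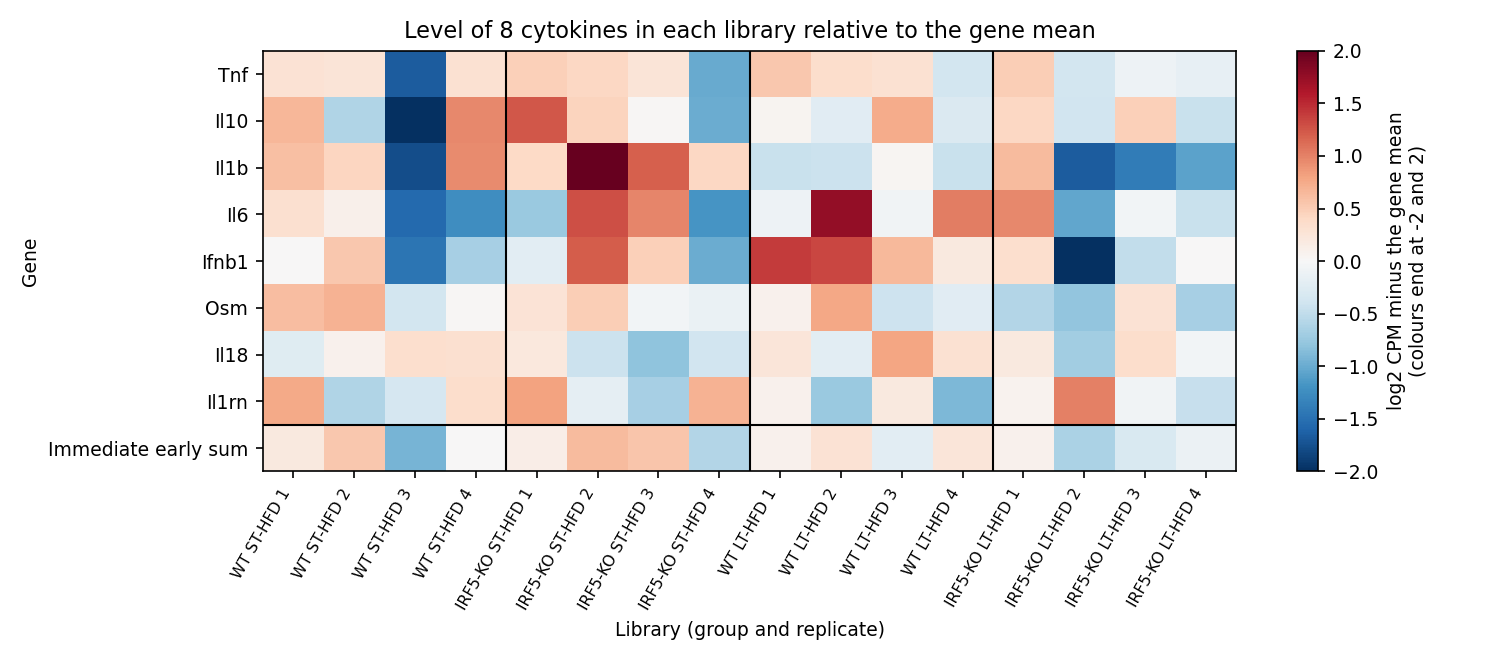
Rows are 8 cytokine genes and the summed immediate early genes, columns are the 16 libraries by group, and colour is log2 CPM minus the row's mean. Blue columns at WT ST-HFD 3, IRF5-KO ST-HFD 4 and IRF5-KO LT-HFD 2 run through Tnf, Il10, Il6, Ifnb1 and the immediate early sum, while Il1rn is red in the latter 2.

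**Figure D4:**
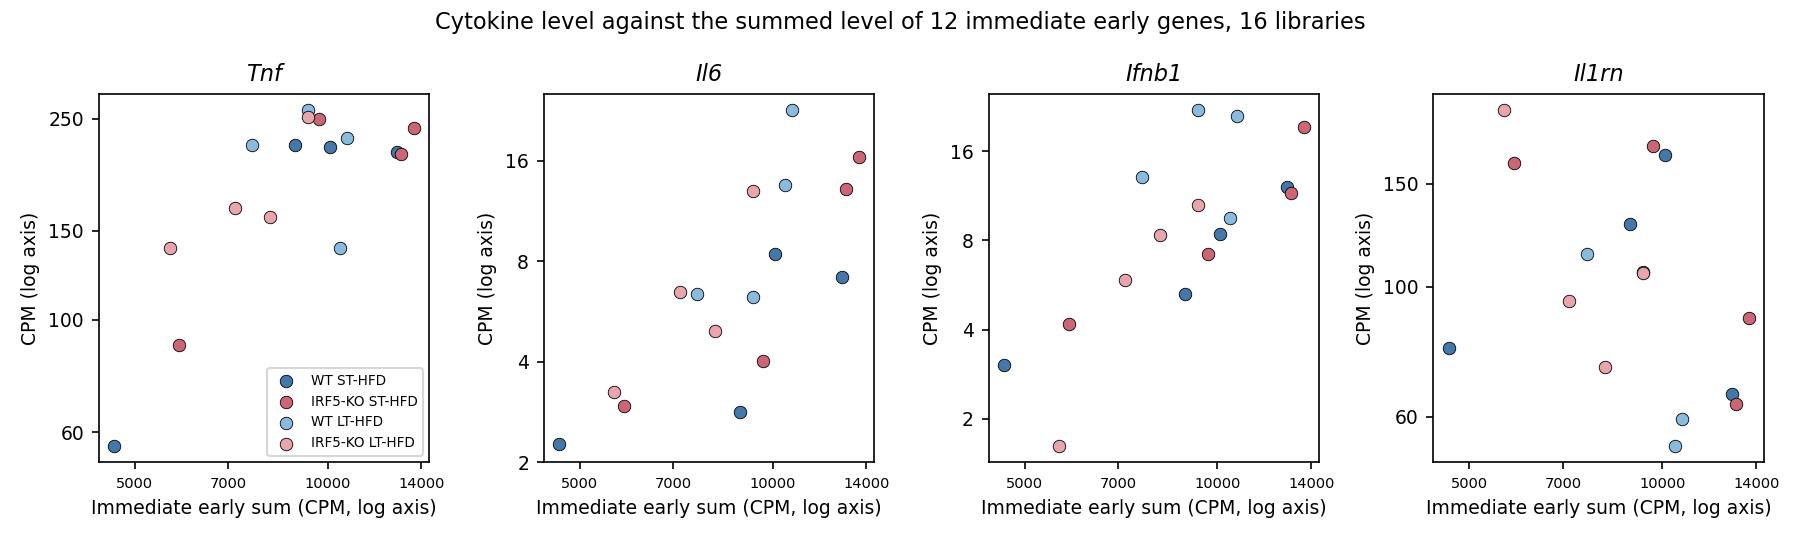
Each point is a library, with the summed CPM of 12 immediate early genes on the horizontal axis and the CPM of Tnf, Il6, Ifnb1 or Il1rn on the vertical axis, both on log scales, coloured by group. Tnf, Il6 and Ifnb1 tend to be low at the left end (r of 0.75 to 0.77) and Il1rn slopes the other way (r of -0.42).

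Among the cytokines themselves, the closest pair was Tnf with Il10 (r = 0.83 over 16 libraries), followed by Il6 with Ifnb1 (r = 0.76) and Tnf with Ifnb1 (r = 0.68). Il1rn ran against Il6 (r = -0.56) and Ifnb1 (r = -0.50), and its r was 0.02 with Tnf and 0.02 with Il1b. The genes whose log2 CPM most resembled each cytokine, out of 9764, were Tnfaip3, Ccrl2 and Nfkbia for Tnf (r of 0.97 to 0.95), where A20 (Tnfaip3) and IkB-alpha (Nfkbia) are feedback inhibitors of NF-kB. For Ifnb1 they were Rnd3 (0.95), Cd40 (0.89) and the immediate early gene Ier5 (0.89), and for Il6 they were Junb (0.89), Ier5 (0.88) and Slc38a2 (0.87). Il1b was most like Stat3, Nr4a1 and Zfp36 (each 0.87), the last being the protein that destabilises cytokine messages. Il10 resembled Rasgef1b (0.93), Gm14636 (0.89) and Plk2 (0.88), and Il1rn resembled Fblim1 (0.94), Lasp1 (0.94) and Brca1 (0.93). Osm was closest to Patl1 (0.89) and Il18 to Fam117a (0.81).

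Beyond the cytokines, 72 genes of their receptors, processing, mRNA stability, signalling and other macrophage cytokines were read from the same fits, and 59 were tested. Between genotypes 0 of 59 were called by edgeR at either duration, with 1 of 59 (ST-HFD) and 10 of 59 (LT-HFD) below an unadjusted p of 0.05 (1.84% and 5.72% of all genes), and DESeq2 called 0 of 72 with 1 and 10 at an unadjusted p under 0.05. On ST-HFD 42 of the 59 log2 fold changes were above 0, as were 50.7% of those of all genes. On LT-HFD 39 of the 59 were below 0, as were 49.9% of those of all genes. Between durations 16 of 59 were called in WT (8 higher, 8 lower) and 22 of 59 in the IRF5-KO-labelled libraries (7 higher, 15 lower), beside 25.3% and 32.8% of all genes. Of the receptors, Osmr, the oncostatin M receptor, was higher on LT-HFD, by 2.89 (WT) and 3.19 (IRF5-KO) on the log2 scale, with edgeR adjusted p-values of 6.07e-05 and 1.56e-05. Il1r1, the signalling IL-1 receptor, was higher by 3.30 and 3.42 (edgeR adjusted p = 9.23e-05 and 4.13e-05), while Il6ra, the IL-6 receptor, had log2 changes of -0.63 in WT and -0.90 in the IRF5-KO-labelled libraries (edgeR adjusted p = 0.00379 and 1.67e-04). The 7 fibroblast markers were all called higher at LT-HFD in both genotypes, their summed level going from 671 to 1633 CPM on ST-HFD to 3126 to 9135 CPM on LT-HFD, while the 8 macrophage markers went from 5151 to 5481 CPM down to 3428 to 4298 CPM. The macrophage markers did not move as one: in WT 3 of 8 were called lower and 0 higher, and in the IRF5-KO-labelled libraries 4 were called lower and 2 higher. Adgre1, which encodes the F4/80 used to select the cells, had log2 changes of 0.20 in WT (edgeR adjusted p = 0.356) and 0.46 in the IRF5-KO-labelled libraries (edgeR adjusted p = 0.0235). The part of these markers in the receptor values was not tested.

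The 6 genes acting on mRNA stability do not all act in the same direction. Of these, 2 of 6 were called lower on LT-HFD in WT, against 13.2% of all genes. In the IRF5-KO-labelled libraries 4 of 6 were called lower, against 17.2%, and 0 of 6 were called higher in either genotype. The fold changes of all 6 were below 0 in WT, and those of 5 in the IRF5-KO-labelled libraries, where Elavl1 was at 0.22 on the log2 scale. Zfp36l2 fell by 0.80 in WT (edgeR adjusted p = 3.76e-05) and fell by 1.07 in the IRF5-KO-labelled libraries (edgeR adjusted p = 1.26e-06), both on the log2 scale. Zfp36l1 had log2 changes of -0.48 in WT (edgeR adjusted p = 0.0662) and -1.08 in the IRF5-KO-labelled libraries (edgeR adjusted p = 2.83e-04). Zfp36l1 and Zfp36l2 encode relatives of tristetraprolin that bind AU-rich elements. Among 19 signalling and feedback genes, 7 were called in WT (3 higher, 4 lower) and 6 in the IRF5-KO-labelled libraries (1 higher, 5 lower), beside the 25.3% and 32.8% of all genes called. Dusp2, a phosphatase of MAP kinases, was higher on LT-HFD by 1.09 in WT and 0.74 in the IRF5-KO-labelled libraries on the log2 scale (edgeR adjusted p = 6.09e-04 and 0.00985). Irak1, a kinase of the IL-1 receptor pathway, had log2 changes of -0.30 and -0.53 (edgeR adjusted p = 0.0304 and 6.18e-04). Irak4, the kinase upstream of it, had log2 changes of -0.73 and -0.40 (edgeR adjusted p = 0.00204 and 0.0559). Of 11 processing genes, 1 was called in WT and 3 in the IRF5-KO-labelled libraries, and of 10 tested other cytokines 2 and 3, beside the same shares of all genes. Csf1, the growth factor of macrophages, was higher on LT-HFD by 2.06 in WT and 1.64 in the IRF5-KO-labelled libraries on the log2 scale (edgeR adjusted p = 0.00134 and 0.00509). The 7 fibroblast markers rose over the same durations, with median log2 changes of 3.04 in WT and 2.83 in the IRF5-KO-labelled libraries. The part of these and of the immediate early genes in the values of Csf1 and of the stability and signalling genes was not tested. In the test of the difference between the genotypes in the change with duration, edgeR called 0 of the 59 genes, with 5 at an unadjusted p under 0.05 (3.93% of all genes), and DESeq2 called 0 of 72 with 5 at an unadjusted p under 0.05.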

How the data were processed

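The authors deposited raw read counts per gene, without normalisation, for each library. They aligned reads to mm10 and generated the counts with STAR 2.7.3a, and the processing notes also name fastp 0.19.11. The library kit keeps strand, and the strand setting of the counting and the annotation release were not given in the sources used here. Total counts ranged from 3279332 to 4958131, which limits the precision of the rarest cytokines.

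The whole table was fitted with edgeR 4.0.16 in R 4.3.3 (filterByExpr, TMM, quasi-likelihood test, Benjamini-Hochberg adjustment over all genes tested). Genotypes were compared within each duration over 8 libraries, and durations and the interaction over 16. A cytokine that failed the filter was read from a fit without it. Alternatives were DESeq2 (version 1.42.0 here), the tool the study names, other size factors, library sizes and filters, other sets of libraries, a replicate block and each library left out. All 10 cytokines were named, and up to 6 pathway genes per comparison were named by smallest p once past the adjusted threshold of 0.05. Of 37310 gene identifiers 32620 matched GENCODE, which gave exon lengths. The cytokines and lists were chosen with earlier results of these data known. Nothing says whether replicates came from separate litters or days. On ST-HFD, libraries of both genotypes with the same number correlated in their deviations from group means at 0.182 to 0.492 (other pairs up to 0.480, 9765 genes). Any pairing by number was thus read from the data alone. The main tests were unpaired, and the numbers entered only the replicate block among the alternatives. Scripts were tested on simulated data.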

Additional observations from a re-analysis of the deposited data

Results flagged for a closer look

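Values that stood apart from the other 3 of their group by Dixon's test were found in 7 of 44 groups examined, where chance gives about 1 in 20 for independent groups of continuous values. The 44 groups share the same 16 libraries, and for Il1a (4 counts beside 3, 3 and 3) and Il12b (1 count beside 0, 0 and 0) in IRF5-KO on LT-HFD the gap is 1 count, so that the number found is not read against that rate. They were Tnf in WT ST-HFD replicate 3 (56.4 CPM, low), Il1a in IRF5-KO LT-HFD replicate 4 (1.24 CPM, high), Il1b in WT LT-HFD replicate 3 (5.28 CPM, high) and in IRF5-KO LT-HFD replicate 1 (8.02 CPM, high), Il12b in IRF5-KO LT-HFD replicate 1 (0.276 CPM, which is 1 count), Osm in IRF5-KO LT-HFD replicate 3 (13.2 CPM, high) and Irf5 in WT ST-HFD replicate 1 (203 CPM, low).

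The difference between durations in the genotype effect on Ifnb1 was -1.85 on the log2 scale (LT-HFD minus ST-HFD, unadjusted p = 0.0176 from edgeR), which passed before adjustment and not after it (edgeR adjusted p = 0.969). Its fold change was above 0 on ST-HFD and below 0 on LT-HFD, by the genotypes as labelled. As each library was left out, the difference stayed between -2.20 and -1.40.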

How the results depend on the processing

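Outside the fits that left out 1 library, 492 values kept their direction and their side of the threshold, 5 turned sign, 2 gained a call (Ifnb1, duration WT) and 6 lost one (Irf5, duration WT). The count of called cytokines between durations in WT was 1 without a filter and in the 8-library fit (Ifnb1), and in the IRF5-KO-labelled libraries it was 2 with DESeq2, without a filter and with a filter of 1 CPM in 4 libraries (Il1a and Il1b). The block for replicate numbers changed no count of called cytokines, and turned the sign of Il10 between durations in WT to 0.018 and of Il1rn in the IRF5-KO-labelled libraries to 0.027, and same-numbered LT-HFD libraries correlated at -0.150 to 0.239, so the numbers were not taken as pairs there. Without the 3 libraries lowest in immediate early genes, an alternative chosen after seeing the data, the values were -0.16 (Il1rn, genotype ST-HFD), 0.062 (Il10, genotype LT-HFD) and -0.043 (Tnf, duration WT). The cause was not tested.

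With each library left out, the count for duration in the IRF5-KO-labelled libraries ranged from 0 to 2 (0 without IRF5-KO ST-HFD replicate 2), and the other 4 cytokine counts were 0 throughout. Log2 values that turned sign ranged, for genotype on ST-HFD, from -0.15 to 0.38 (Tnf), -0.24 to 0.66 (Il10), -0.087 to 0.43 (Il1rn) and -0.074 to 0.90 (Il12b), and on LT-HFD from -0.21 to 0.24 (Il10) and -0.58 to 0.015 (Il1a). For duration in WT they ranged from -0.044 to 0.41 (Tnf), -0.35 to 0.41 (Il10), -0.58 to 0.28 (Il1a) and -0.40 to 0.70 (Il12b), and in the IRF5-KO-labelled libraries from -0.89 to 0.047 (Il6), -0.59 to 0.14 (Il10) and -0.43 to 0.18 (Il1rn). For the interaction they ranged from -0.73 to 0.16 (Il10), -0.020 to 0.58 (Il1rn) and -0.047 to 0.32 (Il18). Counts of called pathway genes ranged from 11 to 17 (duration WT) and from 15 to 25 (duration IRF5-KO). The filter of 1 CPM in 4 libraries gave no value for cytokines it removed.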
